A study of Mus musculus with 6 samples.

Results

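The smooth muscle contractile genes described here encode the filaments, motor, regulators, membrane channels and anchoring proteins with which smooth muscle shortens. They were chosen by symbol from a list of 39 genes, with no measured value in the rule, and all 39 were found among the 20327 gene symbols of the tag-count tables. By what is known of where each gene is expressed, 26 were placed as muscle-restricted and 13 as broadly expressed genes of the actin cytoskeleton. RNA came from the colons of *Il11-Egfp* reporter mice on the C57BL/6 background, aged 9 to 15 weeks, which drank water with 1.5% dextran sulfate sodium (DSS) for 5 days and then plain water. On day 7, cells negative for Ter119, CD45, CD31, EpCAM and the dead-cell dye DAPI were sorted into an EGFP+ and an EGFP- group (n = 3 libraries each), so both groups shared genotype, strain, treatment and time. EGFP was driven by the *Il11* promoter in a bacterial artificial chromosome, a transgene studied here in 1 selected line, and the methods describe an enrichment by sorting, not a pure population. Each library was bulk RNA read by 5′Tag-seq, which counts tags from the 5′ ends of transcripts, and held 1022851 to 1169817 tags.

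In smooth muscle, calcium entering through membrane channels or released from internal stores switches on myosin light chain kinase. Phosphorylated myosin II then slides along smooth muscle actin, and dense bodies, intermediate filaments and adhesion plaques carry the force to the membrane, while serum response factor (SRF) with its coactivator myocardin drives transcription of many of these genes. In the colon the fully assembled machinery belongs to the muscle layers, the thin muscle of the mucosa and vessel walls, whereas fibroblasts use much of the shared actin cytoskeleton and can take up parts of the muscle set as myofibroblasts.

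The sort was checked on *Il11* itself. It had 28, 51 and 89 tags in EGFP- replicates 1, 2 and 3 and 1357, 732 and 2658 tags in EGFP+ replicates 1, 2 and 3. Every EGFP+ library stood above every EGFP- library, and the EGFP- libraries were not empty of the transcript. The EGFP- cells held defining smooth muscle transcripts, among them *Acta2*, *Myh11*, *Des* and *Actg2*, in each library. Of the 8 fibroblast markers, all 8 were tested, and the most abundant, *Dcn*, had 14029, 11620 and 14508 tags in the EGFP- libraries and 24693, 16830 and 15091 tags in the EGFP+ libraries. Fibroblast transcripts were thus abundant in both groups, beside muscle transcripts in the EGFP- libraries.

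Log2 fold changes are given as EGFP+ over EGFP-, so that negative values are lower in EGFP+ cells. Levels are normalized CPM, tags relative to the library total after the totals were scaled by the trimmed mean of M-values. A gene was tested when 3 or more of the 6 libraries held at least 10 of its tags, and it was called when the edgeR quasi-likelihood test, Benjamini-Hochberg corrected over 9334 genes, gave an adjusted p under 0.05 with a fold change over 2. Among the 39 genes, 36 passed the filter and 3 (*Ldb3*, *Sgca* and *Hspb6*) had too few tags. Of the 39, 24 were called lower in EGFP+ cells, beside 6.37% of all tested genes. None of the 39 was called higher by edgeR (0, beside 3.44% of all tested genes), with 2 higher and 26 lower at an unadjusted p under 0.05, and DESeq2 likewise called 24 lower and 0 higher. Fewer cells of a type and less RNA per cell cannot be told apart in bulk libraries.

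The classes are given apart, and the difference between them was not tested. Of the 26 muscle-restricted genes, 23 were tested and 20 fell, whereas of the 13 broadly expressed genes all 13 were tested and 4 fell (*Myl9*, *Mylk*, *Tpm2* and *Flna*). Genes with at least 10 tags in each EGFP- library and in no EGFP+ library passed the filter through the group where they were higher, which favours a fall, and 199 of 296 such genes fell. Among them were 6 of the 20 (*Cnn1*, *Myocd*, *Kcnmb1*, *Cacna1h*, *Ryr2* and *Casq2*). Of the other 17 tested muscle-restricted genes 14 fell, beside 4.38% of the tested genes that did not pass in that way. With at least 10 tags asked of all 6 libraries, 9 muscle-restricted genes were left and 6 fell. Under that filter 4 of the 13 broadly expressed genes fell, beside 256 of all 7098 genes left. Median log2 fold changes were −3.06 over the tested muscle-restricted genes (−2.78 with *Ldb3* and *Sgca* placed at the bounds given with them), −0.31 over the broadly expressed genes and −0.01 over all tested genes. These medians and counts describe lists chosen with earlier results of these data known and carry no test.

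**Figure D1:**
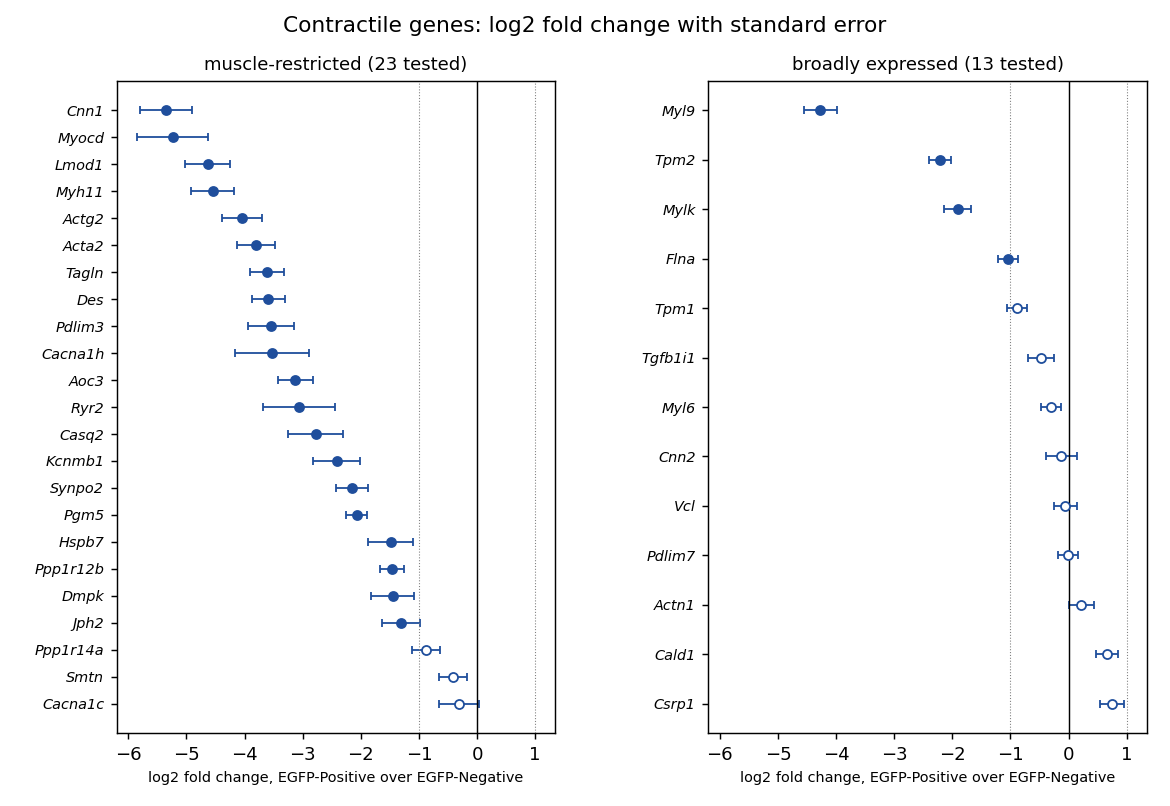
Log2 fold change (EGFP+ over EGFP-, horizontal axis) of the 36 tested genes, with bars of 1 standard error, muscle-restricted and broadly expressed genes apart. Filled points were called and open points were not, the dotted lines mark a fold change of 2, and the values run from −5.35 for *Cnn1* to 0.75 for *Csrp1*.

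Summed over the 26 muscle-restricted genes, levels were 3036, 3633 and 4437 normalized CPM in EGFP- replicates 1, 2 and 3 and 320.1, 354 and 566 in EGFP+ replicates 1, 2 and 3. The groups were far apart, and the mean was 8.95 times as high in EGFP- cells. Within replicate numbers the ratio was 9.49, 10.3 and 7.83 for replicates 1, 2 and 3. *Myh11*, the most abundant gene over all 6 libraries though not in EGFP+ cells, where *Tagln* led, gave 23.7% of the tags. Without the 6 genes most abundant over all libraries (*Myh11*, *Acta2*, *Tagln*, *Actg2*, *Pgm5* and *Des*) the ratio of the remaining sum was 4.22. The sum took 0.301% to 0.462% of the tags of an EGFP- library and 0.0289% to 0.0566% of those of an EGFP+ library. The 13 broadly expressed genes summed to 4309, 5481 and 5414 normalized CPM in EGFP- replicates 1, 2 and 3 and 4579, 4401 and 3426 in EGFP+ replicates 1, 2 and 3. Here the groups overlapped, since EGFP- replicate 1 lay below EGFP+ replicates 1 and 2, and the mean ratio was 1.23. *Cald1* was the most abundant gene over all libraries, with *Myl6* ahead of it in EGFP- cells, and without *Cald1* the ratio was 1.59 and the groups did not overlap.

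Among filaments and the motor, 5 of 7 genes fell. *Acta2*, smooth muscle α-actin, had 515, 781 and 1073 tags in EGFP- replicates 1, 2 and 3 and 23, 36 and 93 tags in EGFP+ replicates 1, 2 and 3. Every EGFP+ library was below every EGFP- library, with EGFP+ replicate 3 the highest of its group. The means were 703 ± 197 normalized CPM in EGFP- cells and 49.9 ± 34.2 in EGFP+ cells (SD, n = 3), which left 7.10% of the EGFP- level, and the log2 fold change was −3.80 (SE 0.329, adjusted p = 2.40e-07 by the edgeR quasi-likelihood test, Benjamini-Hochberg corrected). *Actg2*, the γ-actin typical of visceral muscle, had 153, 254 and 398 tags in the EGFP- libraries and 7, 10 and 26 tags in the EGFP+ libraries, again apart in all libraries, with a log2 fold change of −4.04 (SE 0.343). *Myh11*, the heavy chain of smooth muscle myosin, had 850, 943 and 1332 tags in EGFP- replicates 1, 2 and 3 and 18, 18 and 84 tags in EGFP+ replicates 1, 2 and 3. EGFP+ replicates 1 and 2 were equal and low, and replicate 3 held most of the group's tags while staying far under the lowest EGFP- library. Its level was 931 ± 146 normalized CPM in EGFP- cells and 39.2 ± 35.5 in EGFP+ cells (SD, n = 3), and its log2 fold change was −4.55 (SE 0.368, adjusted p = 1.11e-07 by the edgeR quasi-likelihood test, Benjamini-Hochberg corrected). Without EGFP+ replicate 3, log2 fold changes were −4.52 for *Acta2*, −4.73 for *Actg2* and −5.63 for *Myh11*. Over all settings that tested them, values ran from −4.52 to −3.47 for *Acta2*, −4.74 to −3.73 for *Actg2* and −5.63 to −4.20 for *Myh11*.

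The light chains and tropomyosins, which are shared more widely between cell types, spread from strong differences to none that passed the test. *Myl9*, the regulatory light chain whose phosphorylation starts contraction, had 419, 573 and 763 tags in the EGFP- libraries and 14, 23 and 44 tags in the EGFP+ libraries. The groups were far apart, at 522 ± 114 normalized CPM in EGFP- cells and 26.7 ± 13.9 in EGFP+ cells (SD, n = 3). *Tpm2*, a tropomyosin that lies along actin, had 274, 378 and 425 tags in the EGFP- libraries and 71, 78 and 57 tags in the EGFP+ libraries, also without overlap, and fell with a log2 fold change of −2.21 (SE 0.195). Its paralog *Tpm1* had 414, 533 and 674 tags in the EGFP- libraries and 229, 275 and 280 tags in the EGFP+ libraries. The groups did not overlap, but the log2 fold change of −0.88 (SE 0.172, adjusted p = 0.00131 by the edgeR quasi-likelihood test, Benjamini-Hochberg corrected) was under a fold of 2, and *Tpm1* was not called, though it was without EGFP- replicate 1 (−1.02) or without the fold threshold. *Myl6*, the essential light chain of muscle and nonmuscle myosin, had 961, 1287 and 1485 tags in the EGFP- libraries and 837, 1002 and 846 tags in the EGFP+ libraries, overlapping between groups, with a log2 fold change of −0.31 (SE 0.174) and an adjusted p of 0.285 by the edgeR quasi-likelihood test, Benjamini-Hochberg corrected. Tag counts per symbol do not separate the smooth muscle from the nonmuscle isoforms of *Tpm1*, *Tpm2*, *Mylk*, *Cald1* and *Smtn*.

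**Figure D2:**
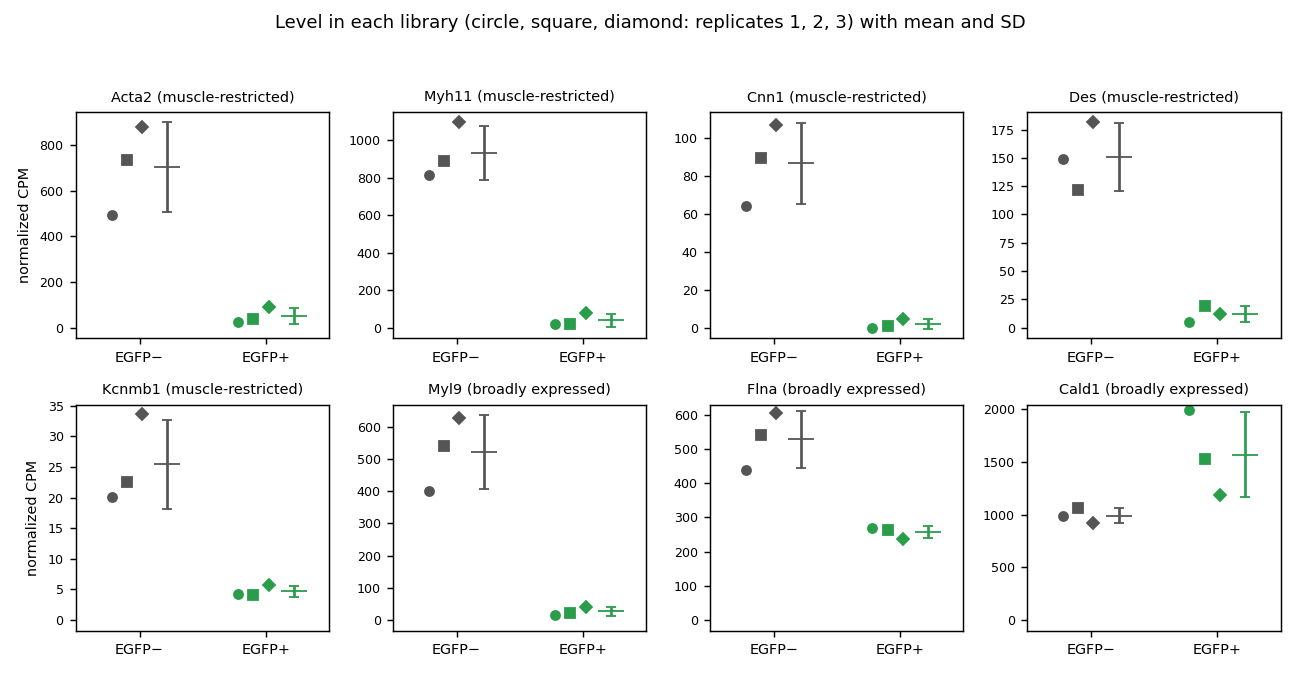
Normalized CPM (vertical axis, a scale of its own for each gene) of 8 genes in each library, with the mean and SD of the 3 libraries of a group beside the points. *Acta2*, *Myh11*, *Cnn1*, *Des*, *Kcnmb1*, *Myl9* and *Flna* were lower in every EGFP+ library than in any EGFP- library, and *Cald1* was higher in each EGFP+ library.

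Of the 7 genes for proteins that bind the thin filament, 4 fell. *Tagln*, the actin-binding protein SM22α, had 531, 636 and 982 tags in the EGFP- libraries and 24, 46 and 86 tags in the EGFP+ libraries. All EGFP+ libraries were low, at 8.06% of the EGFP- mean, and the log2 fold change was −3.62 (SE 0.291). *Cnn1*, the calponin of differentiated smooth muscle that restrains the myosin ATPase, had 67, 95 and 130 tags in EGFP- replicates 1, 2 and 3 and 0, 1 and 5 tags in EGFP+ replicates 1, 2 and 3. It was nearly missing from EGFP+ replicates 1 and 2. The pooled tags, scaled by effective library size, stood at an EGFP- to EGFP+ ratio of 43.6 (95% interval 19.8 to 119.7). Its fitted log2 fold change was −5.35 (SE 0.449, adjusted p = 1.68e-07 by the edgeR quasi-likelihood test, Benjamini-Hochberg corrected). *Lmod1*, a leiomodin that starts new actin filaments, had 97, 104 and 171 tags in the EGFP- libraries and 2, 1 and 10 tags in the EGFP+ libraries, with most EGFP+ tags in replicate 3 and a log2 fold change of −4.63 (SE 0.386). Without EGFP+ replicate 3 the pooled ratio was 169 (95% interval 30.1 to 6709) for *Cnn1* and 71.9 (95% interval 24.4 to 350.2) for *Lmod1*. Over all settings that tested them, fitted log2 fold changes ran from −7.10 to −4.82 for *Cnn1* and −6.05 to −4.17 for *Lmod1*. *Synpo2*, which bundles actin at the dense body and the Z-disc, fell less, with 76, 64 and 85 tags in the EGFP- libraries and 8, 21 and 16 tags in the EGFP+ libraries and a log2 fold change of −2.15 (SE 0.278).

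The remaining 3 thin-filament genes were not called. *Cald1*, caldesmon, which blocks the myosin site on actin and has a nonmuscle form, had 1032, 1132 and 1127 tags in EGFP- replicates 1, 2 and 3 and 1878, 1506 and 1244 tags in EGFP+ replicates 1, 2 and 3. It was higher in every EGFP+ library, at 992 ± 70.8 normalized CPM in EGFP- cells and 1569 ± 404 in EGFP+ cells (SD, n = 3), but its log2 fold change of 0.66 (SE 0.190, adjusted p = 0.0226 by the edgeR quasi-likelihood test, Benjamini-Hochberg corrected) was under a fold of 2. *Cnn2*, the broadly expressed calponin, had 31, 70 and 63 tags in the EGFP- libraries and 36, 40 and 59 tags in the EGFP+ libraries. These values overlapped, and the log2 fold change was −0.12 (SE 0.269). *Smtn*, smoothelin, a marker of contractile smooth muscle, had 36, 44 and 65 tags in the EGFP- libraries and 32, 29 and 36 tags in the EGFP+ libraries, with groups that met without overlapping and a log2 value of −0.41 (SE 0.243, adjusted p = 0.307 by the edgeR quasi-likelihood test, Benjamini-Hochberg corrected).

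Of the 11 genes for the intermediate filament, dense bodies and adhesion plaques, 9 were tested and 4 fell. *Des* encodes desmin, the intermediate filament of muscle, and had 156, 129 and 221 tags in the EGFP- libraries and 5, 19 and 13 tags in the EGFP+ libraries. The lowest EGFP- library was well above the highest EGFP+ library, and EGFP+ cells held 8.18% of the EGFP- level. *Pdlim3*, a PDZ and LIM protein bound to α-actinin, had 70, 132 and 128 tags in the EGFP- libraries and 5, 2 and 18 tags in the EGFP+ libraries, which was low in all EGFP+ libraries but uneven among them. The log2 fold change of *Pdlim3* was −3.55 (SE 0.393), or −4.72 without EGFP+ replicate 3, and ran from −4.72 to −3.09 over all settings that tested it. *Pgm5*, aciculin, a partner of dystrophin and filamin at adherens-type junctions, had 183, 196 and 213 tags in the EGFP- libraries and 32, 46 and 48 tags in the EGFP+ libraries. Its groups were apart with little spread, at a log2 fold change of −2.07 (SE 0.185). *Flna*, filamin A, which crosslinks actin in most cells, had 460, 572 and 735 tags in the EGFP- libraries and 255, 259 and 248 tags in the EGFP+ libraries. No libraries overlapped, but the log2 fold change of −1.04 (SE 0.170, adjusted p = 2.61e-04 by the edgeR quasi-likelihood test, Benjamini-Hochberg corrected) lay just past a fold of 2, and it was −0.95 without EGFP- replicate 3 and −0.98 without EGFP+ replicate 3, where the call was lost.

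A pair of muscle genes of this role stayed near the detection floor, taken as 3 tags per library. *Ldb3*, a Z-disc protein, had 3, 5 and 2 tags in the EGFP- libraries and 0, 0 and 0 tags in the EGFP+ libraries, and *Sgca*, α-sarcoglycan of the dystrophin complex, had 1, 4 and 9 tags in the EGFP- libraries and 0, 0 and 0 tags in the EGFP+ libraries. All EGFP+ libraries were at 0, so the mean was at least 1.01-fold lower for *Ldb3* and at least 1.33-fold lower for *Sgca* against that floor. Intervals and floors cover counting error only. The sources used here do not say whether molecular identifiers were used, and without them tags copied by PCR are not independent molecules. The other 5 were broadly expressed and were not called. *Csrp1*, a LIM protein on α-actinin, had 231, 349 and 267 tags in the EGFP- libraries and 475, 471 and 324 tags in the EGFP+ libraries, with overlap between groups and a log2 value of 0.75 (SE 0.207, adjusted p = 0.0183 by the edgeR quasi-likelihood test, Benjamini-Hochberg corrected). *Tgfb1i1*, the focal adhesion protein Hic-5, had 58, 105 and 124 tags in the EGFP- libraries and 61, 68 and 54 tags in the EGFP+ libraries and a log2 fold change of −0.47 (SE 0.227). The groups overlapped for both. The last 3 had log2 fold changes near 0, at −0.06 for vinculin (*Vcl*), 0.22 for α-actinin 1 (*Actn1*) and −0.00 for *Pdlim7*, whose sign turned to 0.01 with relative log expression or DESeq2 size factors.

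Of the 4 genes that phosphorylate and dephosphorylate the myosin light chain or control that switch, 3 fell. *Mylk*, the calcium-dependent kinase, had 250, 321 and 385 tags in the EGFP- libraries and 49, 112 and 66 tags in the EGFP+ libraries. The groups were apart, with EGFP+ replicate 2 the highest of its group, and the log2 fold change was −1.91 (SE 0.232, adjusted p = 1.15e-05 by the edgeR quasi-likelihood test, Benjamini-Hochberg corrected). *Ppp1r12b*, the targeting subunit MYPT2 of the myosin phosphatase in muscle, had 86, 93 and 128 tags in the EGFP- libraries and 33, 35 and 31 tags in the EGFP+ libraries and a log2 fold change of −1.46 (SE 0.204). *Dmpk*, a myotonic dystrophy kinase that can phosphorylate the phosphatase subunit, had 26, 26 and 28 tags in the EGFP- libraries and 4, 11 and 11 tags in the EGFP+ libraries and a log2 fold change of −1.45 (SE 0.362). Neither gene had overlapping libraries. *Ppp1r14a*, CPI-17, which inhibits the phosphatase after phosphorylation by protein kinase C, had 60, 70 and 56 tags in the EGFP- libraries and 26, 25 and 40 tags in the EGFP+ libraries. Its libraries did not overlap either, but the log2 fold change of −0.88 (SE 0.243, adjusted p = 0.0175 by the edgeR quasi-likelihood test, Benjamini-Hochberg corrected) was under a fold of 2. It was past it, and called, without EGFP- replicate 3 (−1.03) or EGFP+ replicate 3 (−1.08).

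Of the 6 genes for calcium and potassium handling, all with few tags, 5 fell. *Kcnmb1*, the β1 subunit that makes the large-conductance potassium channel of smooth muscle sensitive to calcium, had 21, 24 and 41 tags in the EGFP- libraries and 4, 4 and 6 tags in the EGFP+ libraries. The EGFP+ libraries were low and close together. Levels were 25.4 ± 7.24 normalized CPM in EGFP- cells and 4.67 ± 0.912 in EGFP+ cells (SD, n = 3), and the log2 fold change was −2.42 (SE 0.400, adjusted p = 2.87e-04 by the edgeR quasi-likelihood test, Benjamini-Hochberg corrected). *Cacna1h*, a T-type calcium channel, had 11, 14 and 18 tags in the EGFP- libraries and 1, 0 and 2 tags in the EGFP+ libraries, a pooled ratio of 12.8 (95% interval 4.11 to 64.6). *Ryr2*, a calcium release channel of the sarcoplasmic reticulum, had 21, 12 and 26 tags in the EGFP- libraries and 1, 0 and 5 tags in the EGFP+ libraries, with nearly all EGFP+ tags in replicate 3, and a log2 fold change of −3.06 (SE 0.613). Leaving out EGFP+ replicate 3 moved the pooled ratio from 8.80 (95% interval 3.81 to 24.9) to 34.2 (95% interval 5.90 to 1374) for *Ryr2*, and for *Cacna1h* it became 24.9 (95% interval 4.24 to 1007). *Casq2*, calsequestrin, which stores calcium in that reticulum, had 18, 30 and 23 tags in the EGFP- libraries and 1, 4 and 4 tags in the EGFP+ libraries, low in each EGFP+ library, with a log2 fold change of −2.78 (SE 0.476).

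The last 2 genes of this role were nearer to the broadly expressed ones in size of difference. *Jph2*, junctophilin 2, which holds the reticulum at the membrane, had 25, 39 and 57 tags in the EGFP- libraries and 17, 15 and 11 tags in the EGFP+ libraries. The groups were separate by a small margin, and the log2 fold change of −1.31 (SE 0.324, adjusted p = 0.00861) became −1.08 (adjusted p = 0.0542) without EGFP- replicate 3, with a range of 0.00128 to 0.0542 over all settings tried, by the edgeR quasi-likelihood test, Benjamini-Hochberg corrected, or DESeq2. *Cacna1c*, the pore of the L-type calcium channel, had 44, 23 and 42 tags in the EGFP- libraries and 38, 13 and 27 tags in the EGFP+ libraries. These libraries overlapped, and its log2 fold change was −0.32 (SE 0.341, adjusted p = 0.612 by the edgeR quasi-likelihood test, Benjamini-Hochberg corrected).

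*Myocd* encodes myocardin, the coactivator of SRF in smooth and cardiac muscle. It had 23, 36 and 40 tags in EGFP- replicates 1, 2 and 3 and 0, 0 and 2 tags in EGFP+ replicates 1, 2 and 3. Both tags of the EGFP+ group came from replicate 3, and each EGFP- library was well above the floor. The pooled ratio was 44.3 (95% interval 11.9 to 371), and the fitted log2 fold change was −5.24 (SE 0.616, adjusted p = 8.14e-06 by the edgeR quasi-likelihood test, Benjamini-Hochberg corrected). Without EGFP+ replicate 3, no EGFP+ tag was left and *Myocd* was at least 9.50-fold lower against the floor. Among 10 listed symbols of SRF and its partners, 8 were found (the same proteins stand under *Mkl1* and *Mkl2* in place of *Mrtfa* and *Mrtfb*), 7 were tested, 2 fell and 0 rose by edgeR, with 4 lower and 1 higher at an unadjusted p under 0.05 and 2 lower and 0 higher by DESeq2. *Srf* itself had 50, 49 and 58 tags in the EGFP- libraries and 22, 20 and 50 tags in the EGFP+ libraries, with EGFP+ replicate 3 in the range of the EGFP- group. Its log2 fold change of −0.62 (SE 0.282) was not called, but it was −1.11 and called lower without that library. The genes that fell were *Mef2c*, a transcription factor partner of muscle genes (−2.24, SE 0.320), which passed the filter through the EGFP- libraries alone, and *Klf4*, a zinc finger factor known for repressing smooth muscle genes (−1.37, SE 0.185), which was also the most abundant of the list. For *Mkl1*, a coactivator released by actin polymerization, the log2 fold change of −1.31 had an adjusted p of 0.101, and an adjusted p of 0.0112 with the replicate number as a block, both by the edgeR quasi-likelihood test, Benjamini-Hochberg corrected. Over all settings tried the adjusted p of *Mkl1* in edgeR's quasi-likelihood and DESeq2's tests, Benjamini-Hochberg corrected, was 0.0112 to 0.395, and without EGFP- replicate 3 it was called lower at −1.64.

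The last role joined small heat shock proteins and an amine oxidase. *Aoc3*, vascular adhesion protein 1, an amine oxidase of the smooth muscle and adipocyte surface, had 68, 69 and 101 tags in the EGFP- libraries and 5, 7 and 12 tags in the EGFP+ libraries. All EGFP+ libraries were low, and the log2 fold change was −3.13 (SE 0.296). *Hspb7*, a small heat shock protein of heart and muscle, had 26, 24 and 26 tags in the EGFP- libraries and 13, 5 and 6 tags in the EGFP+ libraries. It fell, at −1.49 on the log2 scale (SE 0.386, adjusted p = 0.0121 by the edgeR quasi-likelihood test, Benjamini-Hochberg corrected), but not without EGFP+ replicate 2 (−1.24, adjusted p = 0.0678) or replicate 3 (−1.28, adjusted p = 0.0503) by the same edgeR quasi-likelihood test, Benjamini-Hochberg corrected, and over all settings the range was 0.00246 to 0.0699. *Hspb6*, HSP20, linked to relaxation, had 13, 9 and 9 tags in the EGFP- libraries and 3, 1 and 2 tags in the EGFP+ libraries. It was not tested, and its pooled ratio was 4.62 (95% interval 1.90 to 13.6).

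The 20 muscle-restricted genes that fell did not fall by the same amount. Among the 14 that did not pass the filter through EGFP- libraries alone, EGFP+ cells held from 3.83% of the EGFP- mean for *Lmod1* to 40.7% for *Jph2*. Less was left of *Lmod1*, *Myh11*, *Actg2* and *Acta2* than of *Pgm5*, *Ppp1r12b*, *Dmpk* and *Hspb7*. All 24 genes called lower had every EGFP+ library under every EGFP- library, an order that the filter sets in tags for 6 of them. Among tested genes that passed otherwise, and counted without the call, this order held for 21 of 30 (16 of 17 muscle-restricted and 5 of 13 broadly expressed), beside 14.1% of all such genes. EGFP+ replicate 3 was the highest of its group for 14 of the 23 tested muscle-restricted genes and 34.5% of all tested genes, and EGFP- replicate 3 likewise for 14 of 23 and 35.1%.

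The wider machinery of nonmuscle cells served as a comparison. Of 16 genes of cytoplasmic actin and myosin, all 16 were tested and 0 fell or rose by edgeR, beside 6.37% and 3.44% of all tested genes. At an unadjusted p under 0.05, 0 were lower and 4 higher, and DESeq2 called 0 lower and 0 higher. By under a fold of 2, *Tpm4* (0.86, adjusted p = 0.00361) and *Tagln2* (0.77, adjusted p = 0.00655) were higher in every EGFP+ library. Both values are from the edgeR quasi-likelihood test, Benjamini-Hochberg corrected, and 0 genes were lower at an adjusted p under 0.05. The median log2 fold change of all 16 was 0.06. Summed levels were 4998, 6079.7 and 6143 normalized CPM in EGFP- replicates 1, 2 and 3 and 6226, 6579 and 5422 in EGFP+ replicates 1, 2 and 3, overlapping between groups, and *Actb*, β-actin, was the most abundant with 1270, 1593 and 2197 tags in the EGFP- libraries and 1108, 1309 and 1173 tags in the EGFP+ libraries. The difference between this list and the contractile genes was not tested.

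**Figure D3:**
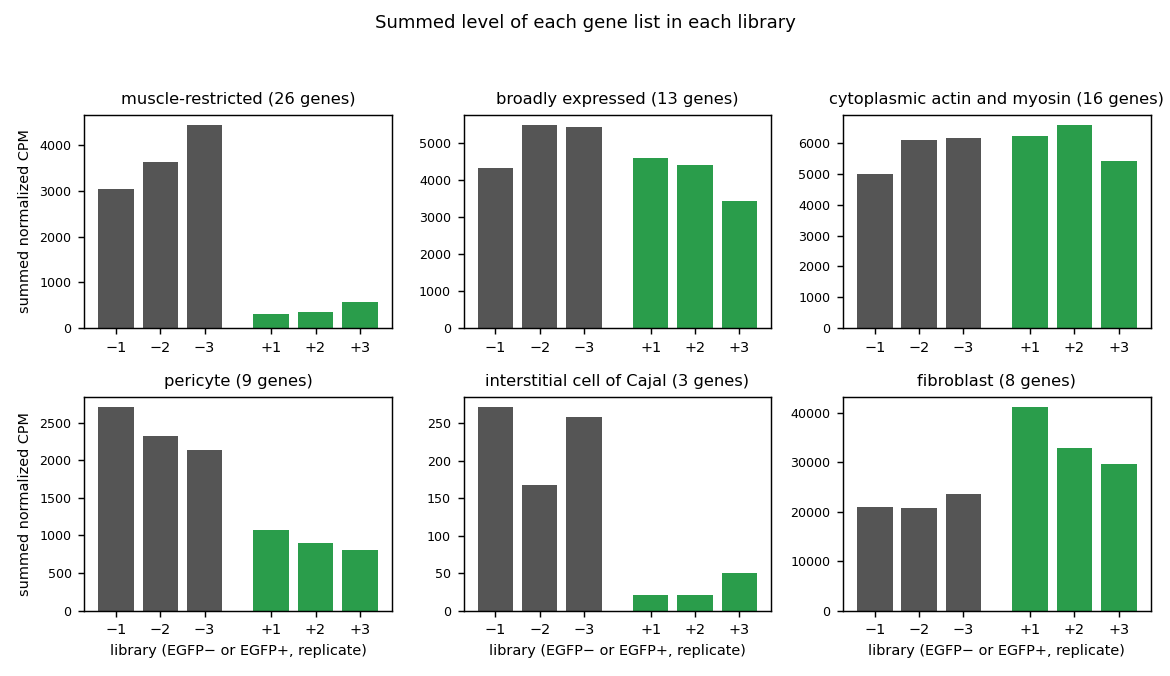
Summed normalized CPM (vertical axis, from 0, a scale of its own for each list) of 6 gene lists in each of the 6 libraries, with EGFP- and EGFP+ replicates as separate bars. The muscle-restricted, pericyte and interstitial cell of Cajal sums were lower in every EGFP+ library (the pericyte sum only with *Rgs5*), the fibroblast sum was higher in each of them, and the broadly expressed sum overlapped.

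Genes that set the tone of smooth muscle from outside the contractile list were lower in part. In the list for control of contraction, 24 symbols were listed, 22 were found (*Gucy1a3* and *Gucy1b3* stand as *Gucy1a1* and *Gucy1b1*), 19 were tested, 7 fell and 1 rose. Of the 7, *Pln* and *Adra1a* passed the filter through the EGFP- libraries alone, and of the other 17 tested genes 5 fell. *Pln*, phospholamban, which restrains the calcium pump of the reticulum, had 29, 24 and 36 tags in the EGFP- libraries and 0, 2 and 4 tags in the EGFP+ libraries. It was close to the floor in EGFP+ cells, with a log2 fold change of −3.65 (SE 0.515) and a pooled ratio of 13.3 (95% interval 5.86 to 37.1), or 25.8 (95% interval 6.93 to 216) without EGFP+ replicate 3. *Kcnma1*, the pore that *Kcnmb1* accompanies, had 33, 47 and 80 tags in the EGFP- libraries and 14, 7 and 16 tags in the EGFP+ libraries, and *Adra1a*, an α1-adrenergic receptor, had 26, 30 and 20 tags in the EGFP- libraries and 1, 2 and 4 tags in the EGFP+ libraries. Both were lower in each EGFP+ library, with log2 fold changes of −1.93 (SE 0.340) and −3.23 (SE 0.490). The guanylate cyclase subunits *Gucy1a1* (−1.25) and *Gucy1b1* (−1.12) and the kinase *Prkg1* (−1.72) fell, and *Pde5a*, the phosphodiesterase that breaks down cyclic GMP, rose with 237, 262 and 264 tags in the EGFP- libraries and 450, 422 and 542 tags in the EGFP+ libraries and a log2 fold change of 1.04 (SE 0.162).

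The *Pde5a* value lay close to a fold of 2, and its log2 fold change was 0.98 without EGFP- replicate 3 and 0.98 without EGFP+ replicate 3. That of *Gucy1b1* was −0.98 without EGFP- replicate 1, on the genes tested with all libraries. *Ppp1r12a*, the widely expressed phosphatase subunit MYPT1, also fell, with 247, 271 and 332 tags in the EGFP- libraries and 109, 93 and 118 tags in the EGFP+ libraries and a log2 fold change of −1.24 (SE 0.166).

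Among 18 other structural genes of smooth muscle, all 18 were tested, 9 fell and 0 rose by edgeR and by DESeq2, with 12 lower and 3 higher at an unadjusted p under 0.05. *Sorbs2* and *Itga7* passed through the EGFP- libraries alone, and of the other 16 genes 7 fell. *Sorbs2*, an adaptor of the adhesion plaque and Z-disc, had 31, 25 and 50 tags in the EGFP- libraries and 0, 0 and 2 tags in the EGFP+ libraries, a pooled ratio of 47.4 (95% interval 12.8 to 397). Its only EGFP+ tags came from replicate 3, and without that library it was at least 10.1-fold lower against the floor. *Synm*, synemin, which joins desmin filaments, had 110, 104 and 119 tags in the EGFP- libraries and 16, 22 and 33 tags in the EGFP+ libraries, and *Cryab*, αB-crystallin, a chaperone of desmin, had 61, 72 and 125 tags in the EGFP- libraries and 5, 10 and 34 tags in the EGFP+ libraries. Both were lower in each EGFP+ library, with log2 fold changes of −2.07 (SE 0.226) and −2.22 (SE 0.386), the latter −3.28 without EGFP+ replicate 3. Others that fell included the actin-binding *Nexn* (−2.37) and *Svil* (−1.19), the laminin receptor subunit *Itga7* (−2.35), δ-sarcoglycan *Sgcd* (−1.32) and *Mustn1* (−1.58). *Lpp*, the most abundant of the list and a LIM protein of focal adhesions, had a log2 fold change of 0.15 (SE 0.163).

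Some markers of pericytes, interstitial cells of Cajal and glia, cells that the sort gate could hold, were also lower in EGFP+ cells, and their part in the result was not tested. Of 9 pericyte markers, 8 were tested and 5 fell (*Rgs5*, *Cspg4*, *Notch3*, *Cox4i2* and *Mcam*). *Notch3* and *Cox4i2* reached 10 tags in EGFP- libraries alone, and of the other 6 tested markers 3 fell. Summed levels of all 9 were 2705, 2321 and 2136 normalized CPM in EGFP- replicates 1, 2 and 3 and 1076, 904 and 806 in EGFP+ replicates 1, 2 and 3. The groups did not overlap in this sum, but this rested on *Rgs5*, a regulator of G protein signalling and the most abundant gene over all libraries, with *Abcc9* ahead of it in EGFP+ cells. Without *Rgs5* the groups overlapped, with means of 739.6 normalized CPM in EGFP- and 738 in EGFP+ cells. The potassium channel subunits *Kcnj8* (0.71, adjusted p = 0.0394) and *Abcc9* (0.66, adjusted p = 0.0167, both by the edgeR quasi-likelihood test, Benjamini-Hochberg corrected), which also belong to pericytes, were higher in EGFP+ cells by under a fold of 2, *Abcc9* in every library. The receptor *Pdgfrb* (−0.38) was not called, and no pericyte marker was at 0 in all EGFP+ libraries. *Notch3*, the receptor of mural cells, had 69, 57 and 67 tags in the EGFP- libraries and 4, 0 and 7 tags in the EGFP+ libraries and a log2 fold change of −3.94 (SE 0.426), or −4.73 without EGFP+ replicate 3. *Cox4i2*, a cytochrome c oxidase subunit, was low in each EGFP+ library, with a pooled ratio of 19.7 (95% interval 6.45 to 97.9), or 38.3 (95% interval 6.63 to 1534) without EGFP+ replicate 3.

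Interstitial cells of Cajal, the pacemakers that lie within the muscle layers, were represented by 3 markers, and all 3 were tested and fell, *Kit* after passing the filter through the EGFP- libraries alone. *Kit*, their receptor tyrosine kinase, had 63, 34 and 69 tags in EGFP- replicates 1, 2 and 3 and 0, 0 and 7 tags in EGFP+ replicates 1, 2 and 3. *Ano1*, their calcium-activated chloride channel and the most abundant of the list over all libraries, though *Etv1* was in EGFP+ cells, had 152, 93 and 196 tags in EGFP- replicates 1, 2 and 3 and 1, 0 and 15 tags in EGFP+ replicates 1, 2 and 3. For both genes EGFP+ replicate 3 held nearly all tags of its group. Log2 fold changes were −4.34 for *Kit* and −4.59 for *Ano1*. Without that library *Kit* was at least 15.9-fold lower against the floor, and the pooled ratio of *Ano1* was 256 (95% interval 45.6 to 10120.2). *Etv1*, their transcription factor, had a log2 fold change of −1.12 (SE 0.268), or −0.93 without EGFP- replicate 1, where the call was lost. The summed levels were 271, 168 and 258 normalized CPM in EGFP- replicates 1, 2 and 3 and 21.2, 20.3 and 50.5 in EGFP+ replicates 1, 2 and 3.

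Of 6 markers of enteric glia and Schwann cells, 2 were tested and both fell, *Gfap* among them after passing the filter through the EGFP- libraries alone. *S100b* had 3, 9 and 4 tags in the EGFP- libraries and 0, 0 and 0 tags in the EGFP+ libraries and *Sox10* 2, 3 and 5 tags in the EGFP- libraries and 0, 0 and 0 tags in the EGFP+ libraries, too few to support a difference for *Sox10* against the floor. The list summed to 127, 96.1 and 126 normalized CPM in EGFP- replicates 1, 2 and 3 and 19.1, 13.2 and 13.4 in EGFP+ replicates 1, 2 and 3. EGFP+ cells were low in each library. Fibroblast markers differed in direction. Of 8 tested, 0 fell and 2 rose by edgeR and by DESeq2, with 1 lower and 5 higher at an unadjusted p under 0.05, and the sum was 20922, 20745 and 23559 normalized CPM in EGFP- replicates 1, 2 and 3 and 41073, 32859.7 and 29555 in EGFP+ replicates 1, 2 and 3. *Col3a1*, a fibrillar collagen (1.04), and *Pdpn*, podoplanin (1.06), were near a fold of 2, at 0.83 and 0.94 without EGFP- replicate 1, and *Pdpn* at 0.97 without EGFP+ replicate 1. The marker that went the other way, *Lum*, was lower in every EGFP+ library by under a fold of 2. Its log2 fold change was −0.64 (adjusted p = 0.0378 by the edgeR quasi-likelihood test, Benjamini-Hochberg corrected).

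Defining genes of striated muscle were at or near 0 in both groups. The 7 skeletal muscle genes found, *Mylpf* and *Actn3* the most abundant with 8 tags each, summed to 7, 10 and 7 tags in the EGFP- libraries and 5, 8 and 5 tags in the EGFP+ libraries, and *Ckm*, the muscle creatine kinase, had 2, 3 and 2 tags in the EGFP- libraries and 0, 0 and 0 tags in the EGFP+ libraries. The 3 cardiac genes summed to 9, 6 and 9 tags and 0, 0 and 3 tags, most of them from *Actc1*, with 7, 5 and 9 tags in the EGFP- libraries and 0, 0 and 0 tags in the EGFP+ libraries. *Actc1* was thus at least 2.07-fold lower against the floor. The endothelial, immune, epithelial, mesothelial and neuronal lists had no tested gene. Their sums over EGFP- and EGFP+ replicates 1, 2 and 3 were 5, 3 and 3 tags and 0, 1 and 2 tags for endothelial genes (most abundant *Kdr*), 19, 18 and 16 tags and 16, 13 and 4 tags for immune genes (*Cd68*) and 4, 1 and 13 tags and 0, 2 and 4 tags for epithelial genes (*Krt8*). Mesothelial genes had 4, 0 and 13 tags and 0, 0 and 0 tags (*Upk3b*) and neuronal genes 2, 6 and 11 tags and 5, 3 and 6 tags (*Tubb3*). The gate was set against the CD31, CD45 and EpCAM proteins of the first 3 of these lists.

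The 39 genes lie on 17 chromosomes of the mouse genome (GRCm38, GENCODE M21 annotation). *Acta2* lies at chr19:34241090-34255590 on the minus strand, *Myh11* at chr16:14194535-14291372 on the minus strand, *Cnn1* at chr9:22099216-22109630 on the plus strand and *Myocd* at chr11:65176561-65269989 on the minus strand, all protein coding. Since 5′ tags of near-identical genes could be counted for the wrong copy, stretches of 50 nt in the first 300 nt of each gene's transcripts were compared with those of all other genes. For 36 of the 39 genes no stretch was shared. *Aoc3* shared 20.7% with *Aoc2* and a predicted gene, *Myl6* 17.7% with 5 predicted genes and *Actn1* 1.09% with *Actn4*, so tags of these 3 genes are uncertain in part.

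Because SRF binds the CArG box, promoters were searched for it on both strands in the 250 bases before the start, in RefSeq sequences of GRCm38.p6 matched by symbol for 32 of the 39 genes. The box was found for 5 of 32 genes, 1 of 20 muscle-restricted and 4 of 12 broadly expressed ones, beside 1.62% of the 27025 genes in the table. Only exact matches to CCWWWWWWGG (W for A or T) counted, so boxes with a mismatch or outside these bases were missed. The difference between the classes was not tested. TATAAA was found for 3 of 32 (*Cald1*, *Hspb6* and *Synpo2*), beside 14.3%. *Actg2*, *Aoc3*, *Cacna1h*, *Myh11*, *Myocd*, *Tagln* and *Tgfb1i1* were not analysed here. A match is a description of letters and not of a bound site, and genes with a box were both called (*Myl9*) and not called (*Myl6*, *Vcl* and *Cnn2*) or not tested (*Ldb3*). The stretches around the box (in capitals, 5′ to 3′ on the gene's strand) are shown for 3 of them, from sequence outside the exons annotated on that strand, to set a gene that fell beside others that did not. They lie at chr2:156775273-156775342 (plus strand, box 161 bases before the start) for *Myl9*, chr14:20929148-20929210 (plus strand, 227 bases) for *Vcl* and chr10:79988514-79988583 (plus strand, 56 bases) for *Cnn2*, and none of the 3 stretches held TATAAA.
*Myl9*: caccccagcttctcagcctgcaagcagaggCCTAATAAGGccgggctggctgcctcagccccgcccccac
*Vcl*: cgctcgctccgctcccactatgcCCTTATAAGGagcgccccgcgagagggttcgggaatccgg
*Cnn2*: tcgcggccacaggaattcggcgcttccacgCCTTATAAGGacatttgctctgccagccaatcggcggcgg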

How the data were processed

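The authors trimmed the 5′Tag-seq reads with cutadapt 1.18, mapped them in 1 orientation to RefSeq RNA of mm10 with Bowtie2 2.2.5 and worked in R 3.5.1, according to the study's methods and the submitters' processing notes. They deposited raw tag counts per gene symbol, 1 table per library, and how tags with several matches were treated is not given in the sources used here. Totals were 1057170, 1078179 and 1169817 tags in EGFP- replicates 1, 2 and 3 and 1046538, 1022851 and 1049048 in EGFP+ replicates 1, 2 and 3.

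The genes and the lists were chosen with earlier results of these data known. All 39 contractile genes were named whatever their values, and of 4 pathway lists and 12 marker lists the called genes and the most abundant gene. *Srf*, *Mkl1*, *Kcnj8*, *Abcc9*, *Pdgfrb*, *S100b*, *Sox10*, *Ckm*, *Tpm4*, *Tagln2* and *Lum* were named besides, after their values were seen. Some listed genes are not reported here. Counts were compared in R 4.3.3 with edgeR 4.0.16 (trimmed mean of M-values, quasi-likelihood fit on group only, Benjamini-Hochberg adjustment), with SE as the size of the log2 fold change divided by the square root of the F statistic. On counts simulated for this comparison, 178 of 184 genes changed 4-fold were recovered with 7 false calls among 9229 tested. Same-numbered libraries of both groups deviated together from their group means (r = 0.231, 0.209 and 0.270 over 5064 genes averaging 30 tags or more). All other pairs were negative, which centring on group means favours once the same-numbered pairs are positive. Since same-numbered libraries deviated together and the methods give 3 mice, the replicate number was also fitted as a block. The source of the libraries of each number is not given in the sources used here, so p-values measure the spread between these libraries. Ratios of pooled tags carry exact (Clopper-Pearson) 95% intervals, and 3 tags stood at 2.46 to 3.18 normalized CPM. Alternatives were other scalings, filters and thresholds, DESeq2 1.42.0, the block and each library left out, and, chosen after seeing the data, leaving out libraries on the genes tested with all 6 and the folds of summed tags, with each library or the most abundant genes (by tags of all 6 libraries) left out. *Cdh1*, *Cdh5*, *Myh4* and *Myh6* of the marker lists were not analysed here.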

Additional observations from a re-analysis of the deposited data

How the results depend on the processing

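The 24 genes called lower were the same genes with relative log expression, library size only, iterative trimmed means, DESeq2 and the replicate block, and 23 of them were among 25 called with no filter. With the replicate block, 648 of all tested genes were lower and 337 higher, and among the genes and lists described it changed no call other than that of *Mkl1*. With at least 10 tags in all 6 libraries, 22 of the 39 genes were tested and 10 were lower, of them 6 of 9 muscle-restricted genes. Of all 7098 genes then tested 256 were lower, since fewer genes passed. With *Myl9*, *Mylk*, *Tpm2* and *Csrp1* placed as muscle-restricted, 23 of 27 tested muscle-restricted genes and 1 of 9 broadly expressed genes were lower, as the placing itself sets. Without the fold threshold, 26 of the 39 (*Tpm1* and *Ppp1r14a* besides) and 812 of all genes were lower, and 2 of the 39 (*Cald1* and *Csrp1*) and 638 of all genes were higher. The fold of the summed muscle-restricted tags was 7.40 without its most abundant gene and 4.22 without 6, which those genes' removal sets.

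With 1 library left out, refiltered, 17 to 24 of the 39 genes were lower and 0 higher (14 to 20 muscle-restricted, 3 to 5 broadly expressed), and 341 to 579 of all genes lower and 251 to 306 higher. The lowest counts came without an EGFP- library, when 6 genes that reached 10 tags in that group alone no longer passed. On the genes tested with all 6 libraries, 23 to 25 were lower and 0 higher (19 to 20 and 3 to 5), and 483 to 580 of all genes lower and 267 to 329 higher. The summed fold ranged from 8.04 to 11.0. For single genes, 398 comparisons kept the side of the threshold, 15 of them with the sign turned in uncalled genes (*Actn1*, *Cacna1c*, *Cnn2*, *Pdlim7* and *Vcl*), 10 lost the call (*Flna*, *Hspb7* and *Jph2*), 6 gained it (*Ppp1r14a* and *Tpm1*) and none reversed a called direction. Under the other settings 269 kept the side, 3 of them with the sign turned (*Pdlim7*), 1 lost the call (*Flna* with no filter) and 4 gained it. The cause of these changes was not tested.

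At this depth (1022851 to 1169817 tags), genes under the filter, among them *Ldb3*, *Sgca* and *Hspb6*, were poorly measured. Recovery was simulated for differences of a fold of 4 only, not for smaller ones. Groups of 3 libraries, 1 reporter line and 1 time point limit how far the values carry. Symbols merge isoforms, tags mark 5′ ends alone, and no spatial or single-cell measurement was used that would say which cells held the contractile transcripts.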

Other observations

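Hemoglobin transcripts varied between libraries without following the groups, although the gate excluded Ter119+ cells. The 5 erythroid markers, none of them tested, summed to 95, 0 and 371 tags and 18, 2 and 20 tags in replicates 1, 2 and 3 of the EGFP- and then the EGFP+ group, with *Hbb-bs* the most abundant. EGFP- replicate 3, which held the most hemoglobin tags, also held the most *Acta2*, *Myh11* and *Tagln* tags, whereas EGFP- replicate 2 held no hemoglobin tag and ranked between the others of its group for the same 3 genes.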
